A study of Mus musculus with 6 samples.

Results

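The genes described here encode the machinery that assembles the mitotic spindle and separates the chromosomes, together with the cyclin and kinase that drive cells into mitosis. Of 35 genes on the list, 34 were matched to at least 1 probe set whose platform annotation names that gene alone, out of 18193 genes so named. They are measured by 75 of the 45037 probe sets that are not controls, and Ccnb1 is not analysed here. Expression was measured on Affymetrix mouse arrays in megakaryocytes, the polyploid cells of blood formation that shed platelets. Progenitors came from fetal livers of mouse embryos at day 13.5 and were cultured until they had become megakaryocytes, which were enriched on a gradient of bovine serum albumin. There were 6 arrays, 3 from cultures with a Gata-1 knock down and 3 from Gata-1 wild-type cultures, and the replicates of either group are lettered A to C. The labels give no strain, no method of the knock down and no word on whether the samples of a group came from separate animals or cultures, and the p-values therefore reflect only how far these arrays scatter, possibly for technical reasons.

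GATA1 is a transcription factor that megakaryocyte and red cell precursors need in order to mature. Dividing cells enter mitosis when CDK1 bound to a B-type cyclin becomes active, the checkpoint kinases then hold anaphase back until all kinetochores are attached to microtubules, and the anaphase-promoting complex ends the hold by marking securin and cyclin B for destruction. Maturing megakaryocytes use the same proteins in endomitosis, in which the chromosomes are copied and separated repeatedly without a completed cell division.

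The targeted gene was checked first. Gata1 read 153.5, 143.3 and 194.7 on knockdown arrays A, B and C and 8723.7, 8246.5 and 8495.6 on wild-type arrays A, B and C. Knockdown arrays lay far below wild-type arrays, with a log2 fold change of -5.52 ± 0.12 (SE, limma adjusted p 2.89e-09). All signals are as deposited, on a linear scale, and every array had the same trimmed mean. All knockdown arrays had a higher median signal than all wild-type arrays, 111.3 to 137.8 against 101.6 to 104.4, and a brighter highest bacterial control probe set, 79.8 to 132 against 60.7 to 65.8. The top of both knockdown ranges was knockdown B. Fold changes are on the scale of log2(signal + 32) after quantile normalization, as knockdown minus wild type, and the offset makes those of dim probe sets smaller. Each gene is represented by its brightest probe set unless another is named, and the words rose and fell are kept for genes with an adjusted p below 0.05 over all 31526 probe sets tested.

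The cultures also differed in markers of cell types. Of 11 measured megakaryocyte markers, all lay above the bacterial controls on every wild-type array and 8 fell, and their summed signal was 94870.3 to 118086 in knockdown and 143256 to 153677 in wild type. The summed signal of 10 neutrophil markers was 3084.4 to 3217.5 in knockdown and 11113.7 to 11548.5 in wild type, with 8 falls. For 11 macrophage markers it was 7736.6 to 7814 against 20937.9 to 21526.6, with 11 falls and 1 marker within the controls on all knockdown arrays. For 10 mast cell markers it was 1966.6 to 2231.4 against 4723.8 to 5387.3, with 7 falls, 1 rise and 6 markers within the controls on all knockdown arrays. Red cell markers, 11 measured and 9 tested, summed to 8523 to 8693.6 against 22360.3 to 22752.1, with 4 falls and 2 rises. Hepatocyte markers, 7 measured and 4 tested, summed to 551.4 to 805 against 1217.9 to 1390.5, with 1 fall. No summed signal of a list overlapped between the groups, but a sum leans on its brightest markers. Hbb-y had means of 1125 in knockdown and 9748 in wild type, and Afp, the hepatocyte fall, 370 and 913. Only 3 of the 7 hepatocyte markers lay above the controls on every wild-type array. For the counts of calls, the shares of all genes tested were 17.1% that fell and 18.3% that rose. Deposited signals did not overlap for 20.4% of all genes tested with knockdown lower and for 29.1% with knockdown higher. The part of these differences in the mitotic gene values was not tested, and in bulk RNA fewer cells of a type and less RNA per cell cannot be told apart.

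Transcripts for the mitotic machinery were mostly higher in knockdown, by small amounts. Of the 34 genes, 22 rose, 1 fell and 11 did not pass the test, against 18.3% of all 14230 genes tested that rose and 17.1% that fell. The median log2 fold change of the 34 was 0.40, with a range from -0.41 to 0.63, where the median over all genes tested was 0.03. At the level of probe sets, 70 of the 75 passed the filter on low signals, and of these 34 rose, 2 fell and 34 did not pass. Of all probe sets tested 16.1% rose and 14.3% fell, or 30.4% in either direction, and of all genes 35.5%. The deposited signals of the groups did not overlap for 26 of the 34 genes with knockdown higher and for 1 with wild type higher, while among all genes tested 29.1% and 20.4% did not overlap in these directions. On every knockdown array most of the genes lay above the wild-type mean on the normalized scale: 31 of 34 on knockdown A, 29 on knockdown B and 32 on knockdown C, with medians of 0.36, 0.43 and 0.42 above it.

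**Figure D1:**
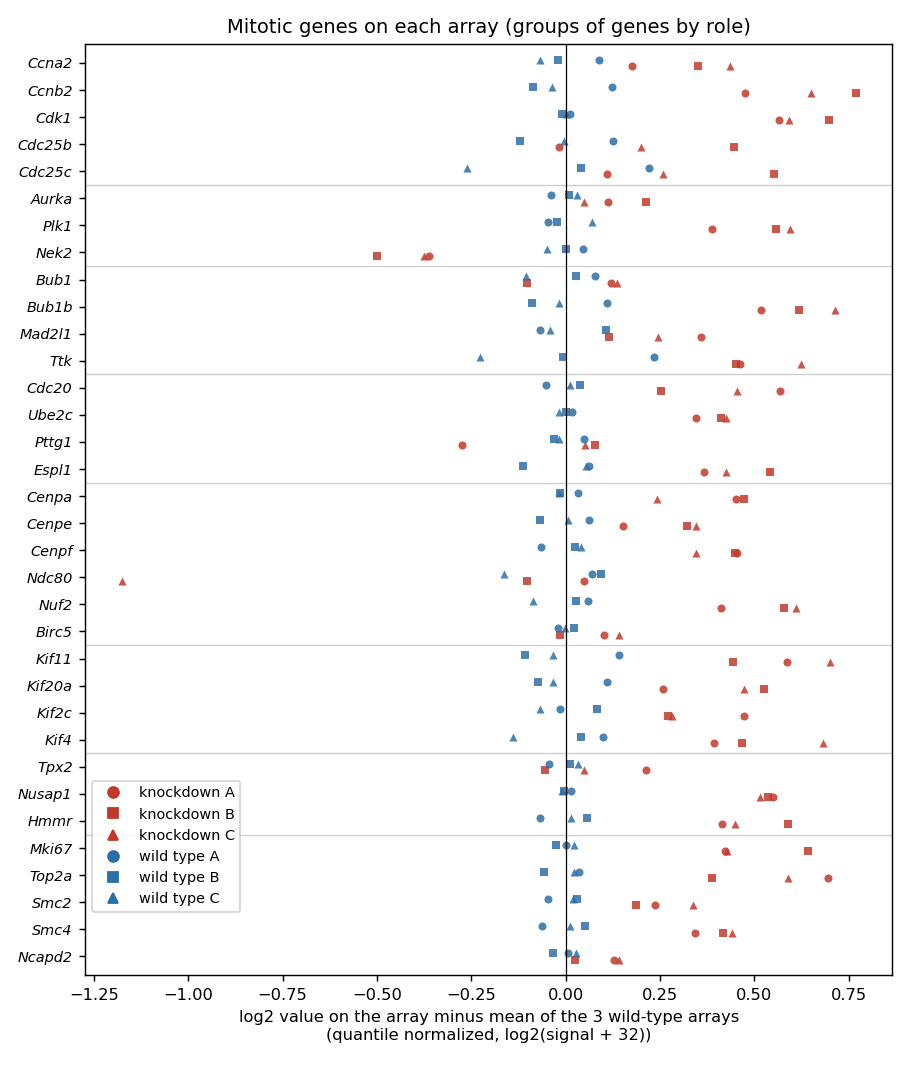
Each row is 1 mitotic gene and each point 1 array, plotted as the quantile normalized log2 value minus the mean of the 3 wild-type arrays, with red for knockdown, blue for wild type and the marker shape for the replicate letter; grey lines separate the roles. Most red points lie to the right of the blue ones, Nek2 lies to the left, and knockdown C stands alone at the left for Ndc80.

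How many of these genes count as higher depended on how the arrays were scaled. With the values as deposited, 23 of 34 rose and 1 fell, against 21.1% and 16.3% of all genes (37.3% in either direction), whose median was 0.12. With each array centred on its median, 6 of 34 rose and 2 fell, against 8.36% and 20.8% (29.2% in either direction), and the median of the 34 was 0.18 where that of all genes was -0.08. The split of calls over all genes moved too, from 51.7% higher after quantile normalization to 56.4% as deposited and 28.7% after median centring. Relative to the median of all genes, the mitotic genes were shifted by 0.36 after quantile normalization and by 0.26 with the deposited values. Median centring moves all genes by the same constant from the deposited values and so gives the same shift by construction. The 6 rises that held under median centring were those of Ccnb2, Cdk1, Bub1b, Nuf2, Kif11 and Nusap1, which also passed under each of the other alternatives tried, and the 2 falls were those of Nek2 and Pttg1. The small positive values of Aurka, Bub1, Birc5, Tpx2 and Ncapd2, none of them called, turned negative under median centring. In the subset of 6445 genes with a wild-type mean signal of at least 500, which holds 29 of the mitotic genes, 19 of the 29 rose and 1 fell, against 29.1% and 28.4% (57.5% in either direction) of that subset, whose limit was chosen after the data were seen. With median centring it was 6 and 2, against 10.2% and 36.2% (46.4% in either direction). The median log2 fold change of the 29 was 0.395 where that of the subset was 0.022 after quantile normalization. With median centring these medians were 0.143 and -0.178.

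**Figure D2:**
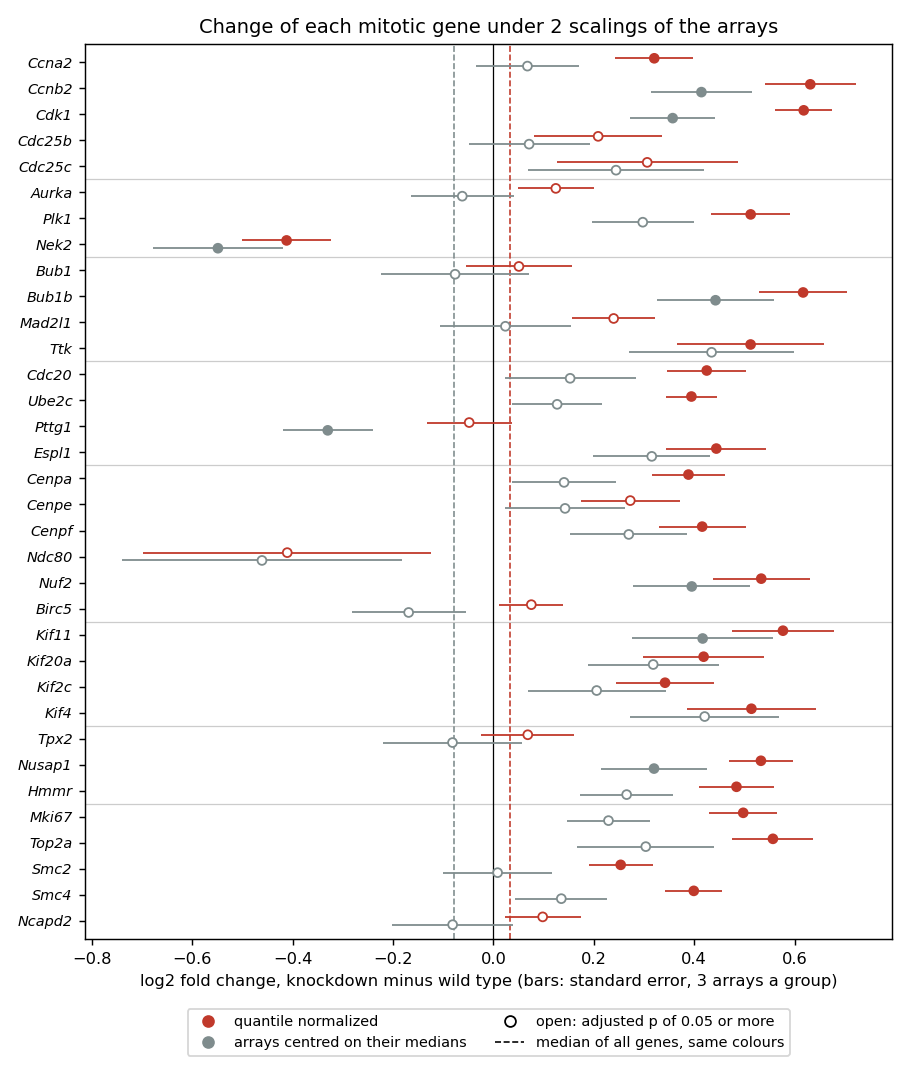
Log2 fold change of each mitotic gene with its standard error, in red after quantile normalization and in grey with arrays centred on their medians, where filled points have an adjusted p below 0.05 and dashed lines mark the median of all genes tested under each scaling. Median centring moves the points to the left, from a median of 0.40 to 0.18, and leaves 6 filled points above 0.

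The cyclin genes Ccnb2 and Ccna2 and the kinase gene Cdk1 rose, while the order of the members by fold change differed between scalings. Ccnb2, a B-type cyclin that activates CDK1, read 1970.1, 2338.1 and 2214.8 on the knockdown arrays and 1544.7, 1322.1 and 1373.2 on the wild-type arrays. All knockdown signals were above all wild-type signals, and the log2 fold change was 0.63 ± 0.09 (SE, limma adjusted p 0.000423). Cdk1, the kinase of mitotic entry, read 3720.3, 3980.3 and 3767.7 in knockdown and 2619.7, 2557.9 and 2608.5 in wild type, a mean of 3823 ± 138 against 2595 ± 32.9 (SD, n = 3). Its groups were tight and well apart, and the log2 fold change was 0.62 ± 0.06 (limma adjusted p 2.08e-05). Ccna2, the cyclin of S phase and early mitosis, read 2773.6, 3018.4 and 3299.7 in knockdown and 2691.7, 2467.8 and 2390.8 in wild type, with a narrow gap between knockdown A and wild type A. It rose by 0.32 ± 0.08, its other probe set rose by 0.49 ± 0.08, and without wild type C the value was 0.28 with a limma adjusted p of 0.0563. The call was also lost when the limma fit had no intensity trend (adjusted p 0.0764). The phosphatases that activate CDK1 did not pass the test. Cdc25b, at 0.21 ± 0.13, had overlapping groups, and Cdc25c, at 0.31 ± 0.18, read only 231.3, 338.2 and 262.2 in knockdown and 231.1, 203 and 153.9 in wild type (limma adjusted p 0.268 and 0.248).

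The start regions of these genes carry words known from cell cycle promoters, and 5 are shown. For rises, only genes with TTTGAA or TTCGAA were eligible, and the 4 with the highest fold changes after quantile normalization were taken. These 4 also had the highest fold changes of the whole group. The remaining region is that of the gene that fell, taken whatever words it held. The sequences are RefSeq reference sequence of build GRCm38.p6, 5′ to 3′ on the strand of the gene, up to 30 bases past the annotated start site. Capitals mark TTTGAA and TTCGAA, which are forms of the cell cycle genes homology region (CHR) that the MuvB complex binds, and CCAAT, the box bound by NF-Y, each on either strand. The windows lie at chr9:70421525-70421741 (minus strand) for Ccnb2, chr10:69352883-69353032 (minus) for Cdk1, chr2:118598003-118598240 (plus) for Bub1b, chr19:37376262-37376411 (plus) for Kif11 and chr1:191821353-191821502 (plus) for Nek2.
Ccnb2: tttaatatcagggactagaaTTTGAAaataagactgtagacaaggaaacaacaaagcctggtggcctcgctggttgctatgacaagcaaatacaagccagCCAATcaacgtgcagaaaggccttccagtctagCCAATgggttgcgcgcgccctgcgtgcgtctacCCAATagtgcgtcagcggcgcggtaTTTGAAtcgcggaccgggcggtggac
Cdk1: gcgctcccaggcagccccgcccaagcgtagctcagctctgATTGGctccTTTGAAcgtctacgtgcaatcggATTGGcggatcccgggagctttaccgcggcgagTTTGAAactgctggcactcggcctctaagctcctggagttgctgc
Bub1b: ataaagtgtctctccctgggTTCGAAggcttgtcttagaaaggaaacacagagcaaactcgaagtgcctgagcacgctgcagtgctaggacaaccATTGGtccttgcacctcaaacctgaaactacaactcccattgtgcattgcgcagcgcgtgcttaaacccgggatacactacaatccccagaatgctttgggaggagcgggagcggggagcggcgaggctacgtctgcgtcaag
Kif11: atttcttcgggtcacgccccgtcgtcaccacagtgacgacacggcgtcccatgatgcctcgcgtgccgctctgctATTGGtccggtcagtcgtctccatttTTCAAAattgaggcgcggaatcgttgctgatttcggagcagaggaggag
Nek2: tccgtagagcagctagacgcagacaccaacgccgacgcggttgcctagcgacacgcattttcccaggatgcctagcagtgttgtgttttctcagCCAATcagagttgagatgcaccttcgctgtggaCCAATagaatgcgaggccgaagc
Counted from the start site as 1, Ccnb2 has a TTTGAA at -167 and one at 5, with 3 CCAAT boxes between them. Cdk1 has one at -71 and one at -15, and Kif11 one at -19 on the other strand. Bub1b has a TTCGAA at -188 and a TTTGAA at 41, which lies past the stretch shown. Nek2 has 2 CCAAT boxes and neither form of the CHR.

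The 2 CHR forms were common near the start sites of the whole group. Promoter windows of 300 bases, 250 before to 50 after the start, were found for 29 of the 34 measured genes, the exceptions being Ccna2, Cdc25c, Kif20a, Tpx2 and Smc4. TTTGAA was present on either strand in 20 of the 29 (69.0%), against 17.9% of all 32851 windows in the table. Those windows belong to 27025 genes, tested here or not, so some genes have several, while each of the 29 has 1. TTCGAA was present in 4 (13.8%, against 1.6%) and CCAAT in 22 (75.9%, against 37.4%). Within 50 bases of the start, 19 of 29 held TTTGAA or TTCGAA, 65.5% against 5.3%. In 16 of 29, or 55.2% against 2.1%, a CHR form began at most 60 bases downstream of the start of a CCAAT. Among these 16 the spacing ran from 9 to 56 bases with a median of 27. An E2F word, GCGCGAA, was found in 2 of 29 (6.9%, against 1.6%). The GATA words AGATAA and TGATAA and the forms AGATAG and TGATAG, which share a core, were together found in 8 of 29, or 27.6% against 29.8%. Each match is a description of letters in these windows and not of a bound site. Among the 22 genes with a CHR form, 17 rose and 0 fell and the median log2 fold change was 0.43. Among the 7 without one, 2 rose, 1 fell and the median was 0.24, and the lowest value was -0.41 in either group. Under median centring, 4 of the 22 rose and 0 fell, and 2 of the 7 rose and 2 fell. Of all genes tested 18.3% rose and 17.1% fell after quantile normalization, and 8.36% and 20.8% under median centring. Whether the CHR forms and the changes go together was not tested.

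**Figure D3:**
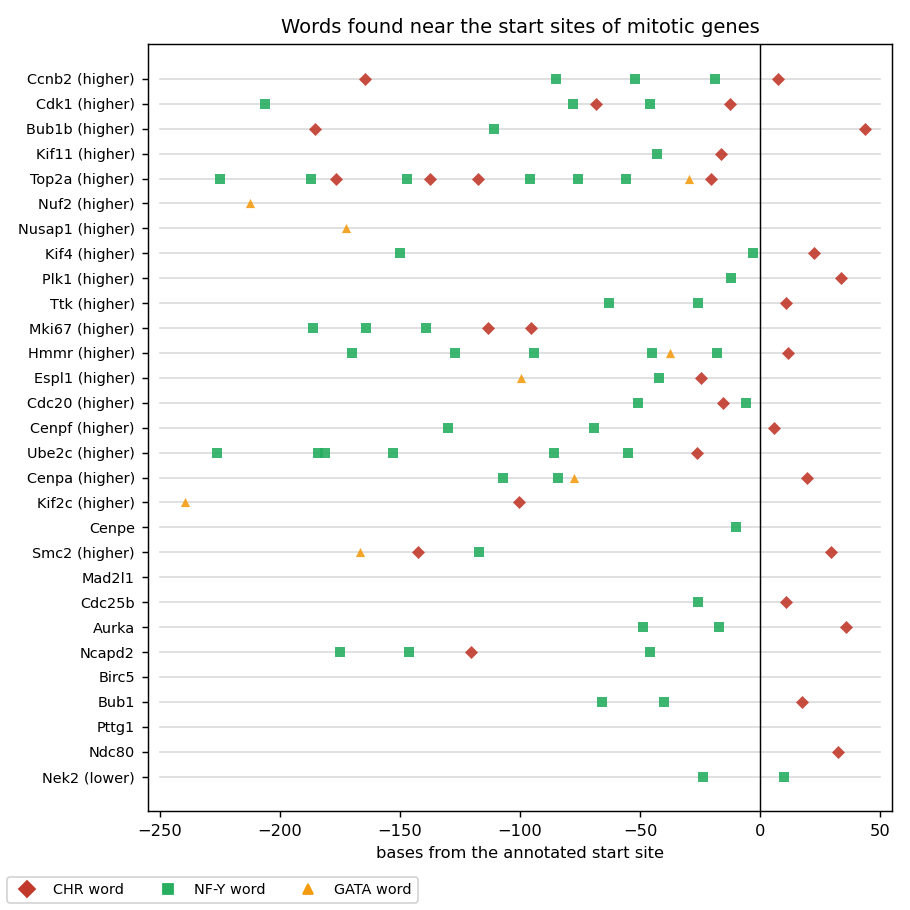
Position of each word relative to the annotated start site (line at 0) in the 29 genes with a promoter window, ordered from the largest log2 fold change at the top to the lowest at the bottom, with red diamonds for the CHR forms, green squares for CCAAT and orange triangles for the GATA words. The CHR forms lie within 50 bases of the start site in 19 of the 29 genes, while Nuf2, Nusap1, Mad2l1, Birc5 and Pttg1 hold neither a CHR form nor a CCAAT.

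The mitotic kinases differed in direction. Plk1, the kinase of centrosome maturation and mitotic exit, read 1628, 1784.9 and 1861.6 in knockdown and 1200.8, 1215.7 and 1300.2 in wild type. Every knockdown signal was higher, with a log2 difference of 0.51 ± 0.08 (limma adjusted p 0.000677). Nek2, a centrosomal kinase that helps separate the spindle poles, was the gene that fell: its brightest probe set read 648.7, 573.1 and 625.9 in knockdown and 823.3, 799.5 and 762.5 in wild type. The groups did not overlap, and the log2 fold change was -0.41 ± 0.09 (limma adjusted p 0.00551). A dimmer Nek2 probe set was at -0.34 ± 0.17 with overlapping groups, and another, near the bacterial controls with knockdown signals of 69.6, 174.3 and 90.3 and wild-type signals of 43.3, 10.1 and 76.4, was at 0.81 ± 0.39 (limma adjusted p 0.184 and 0.157). The mean over the tested probe sets of Nek2 was 0.02 with a limma adjusted p of 0.933, so its fall rests on the brightest one. That probe set is of a kind (suffix _s_at) that can also read related transcripts. Aurka, the kinase of the spindle poles, read 1239.2, 1278.3 and 1157.1 in knockdown and 1085.7, 1119 and 1134.7 in wild type. These deposited signals did not overlap, yet the normalized difference of 0.12 ± 0.08 did not pass (limma adjusted p 0.268).

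Of the spindle checkpoint genes, Bub1b and Ttk rose. Bub1b, the checkpoint protein that restrains the anaphase-promoting complex, read 1262, 1306.7 and 1422.2 in knockdown and 916.3, 789.9 and 825.9 in wild type and rose by 0.62 ± 0.09 (limma adjusted p 0.000398). A further Bub1b probe set showed a wider gap, 991.2, 738.9 and 1045.6 against 374.5, 356.8 and 398.2, with a log2 fold change of 1.15 ± 0.13, the largest of all 70 tested. The remaining Bub1b probe set, with signals from 88.3 to 146.8, was at -0.03 ± 0.20 and did not pass. Ttk, the kinase that starts checkpoint signalling at kinetochores, read 401.5, 399.5 and 449.4 in knockdown and 309.3, 259.5 and 212.2 in wild type. It rose by 0.51 ± 0.15 (limma adjusted p 0.0227), a call lost without knockdown C, wild type B or wild type C, at adjusted p of 0.0833, 0.0701 and 0.101. Mad2l1, which forms the inhibitor of CDC20, had a log2 fold change of 0.24 ± 0.08 and narrowly missed the threshold (limma adjusted p 0.0535); without knockdown B it was 0.30 and passed at 0.0186. Bub1, the kinase that recruits the others to kinetochores, was at 0.05 ± 0.11 with overlapping groups (limma adjusted p 0.774).

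Genes of anaphase rose except securin. Cdc20, the activator of the anaphase-promoting complex, read 4196.2, 3313.9 and 3904.1 in knockdown and 2858, 3045 and 3003.3 in wild type. It rose by 0.43 ± 0.08, and a second bright probe set by 0.46 ± 0.08 (limma adjusted p 0.0022 and 0.00147). A dim one was at -0.07 ± 0.24 and not called, and the mean over the 3 probe sets was 0.27 and did not pass (limma adjusted p 0.0891). Ube2c, the ubiquitin-conjugating enzyme of that complex, read 4145, 4243.5 and 4396.2 against 3444.1, 3394.5 and 3364.4, narrow ranges well apart, and rose by 0.39 ± 0.05 (limma adjusted p 0.000209). Espl1, the separase that cleaves cohesin, read 719.1, 795 and 735.8 against 542.1, 478.5 and 530.5 and rose by 0.44 ± 0.10 (limma adjusted p 0.00664). Pttg1, the securin that holds separase inactive, gave probe sets that differed. The brightest read 5193.9, 6616.6 and 6578.2 in knockdown and 6897.7, 6507.9 and 6672.6 in wild type, with knockdown A alone below the rest, and was at -0.05 ± 0.08 (limma adjusted p 0.731). A second read 1336.3, 1074.3 and 1024.4 against 1723.7, 1711.9 and 1766.8, with no overlap, and fell with a log2 difference of -0.58 ± 0.10 (limma adjusted p 0.000974). The brightest probe set had a value of -0.33 and an adjusted p of 0.0177 with arrays centred on their medians.

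At the centromere and kinetochore, Nuf2, Cenpf and Cenpa rose and Cenpe, Birc5 and Ndc80 did not pass. Nuf2, a subunit of the microtubule-binding NDC80 complex, read 790.3, 865.5 and 894.9 in knockdown and 580.4, 569.4 and 512 in wild type and rose by 0.53 ± 0.10 (limma adjusted p 0.00186). Its partner Ndc80 read 263.8, 249.1 and 95.7 in knockdown and 244.1, 253.9 and 201.7 in wild type. Knockdown C alone was low, knockdown A and B lay close to wild type, and the value of -0.41 ± 0.29 became -0.03 without knockdown C (limma adjusted p 0.336 and 0.924). Cenpf, a large protein of the outer kinetochore, read 899.5, 875.3 and 826.2 against 590.5, 635.2 and 632 and rose by 0.42 ± 0.09. Cenpa, the histone H3 variant that marks centromeres, read 2795.7, 2720.8 and 2381.8 against 2126, 2049.5 and 2047.2 and rose by 0.39 ± 0.07 (limma adjusted p 0.00449 and 0.00238). Cenpe, the kinetochore motor, did not overlap between groups, at 639.4, 696.7 and 718.5 against 563.5, 511 and 530.1, and its 0.27 ± 0.10 missed the threshold (limma adjusted p 0.0634). Without knockdown A it was 0.34 and passed at 0.0205. Birc5, or survivin, of the chromosomal passenger complex, read 2392.5, 2141.8 and 2438.7 against 2255, 2307.4 and 2271.1, with a log2 difference of 0.08 ± 0.06 (limma adjusted p 0.433). Dimmer probe sets of Cenpa were at 0.68 ± 0.21, called, and at 0.33 ± 0.29, not called. The further tested ones of Cenpf and Cenpe, at 0.45 ± 0.20 and 0.61 ± 0.24, were not called.

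All 4 spindle motors of the group rose, where 18.3% of all genes tested rose and 17.1% fell. Kif11, the kinesin that pushes the spindle poles apart, read 1123.1, 986.7 and 1191.7 in knockdown and 782.4, 657.9 and 685.5 in wild type. Its 3 probe sets gave log2 fold changes of 0.58 ± 0.10, 0.61 ± 0.12 and 0.66 ± 0.14, each called, with a highest limma adjusted p of 0.00446. The chromokinesin Kif4, read at 441.6, 459.8 and 539 against 325.5, 313.9 and 266.6, rose by 0.51 ± 0.13, and Kif20a, a kinesin of the central spindle, at 442.2, 526.1 and 511.9 against 366.4, 318.6 and 322.1, by 0.42 ± 0.12. Neither gene had overlapping groups. Kif2c, which depolymerizes microtubules at centromeres, rose by 0.34 ± 0.10 on its brightest probe set and by 0.48 ± 0.12 and 0.55 ± 0.14 on 2 others, while the remaining one was at 0.07 ± 0.23 and not called. The limma adjusted p was 0.0117 for Kif4, 0.0241 for Kif20a and 0.0229 for Kif2c, and each of these calls was lost when some single array was left out. That of Kif4 was lost without knockdown C (0.0512) or wild type C (0.0598) and that of Kif2c without wild type A (0.0769), wild type C (0.101) or the intensity trend (0.0539). For Kif20a it was lost without knockdown B (0.0532), knockdown C (0.0774), wild type B (0.0939) or wild type C (0.0878), and with the replicate letter as a block (0.0547). With arrays centred on their medians, Kif4, Kif20a and Kif2c did not pass either (limma adjusted p 0.0591, 0.101 and 0.328).

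Spindle microtubule proteins were split by probe set. Nusap1, which bundles spindle microtubules, read 1763.4, 1699.5 and 1710.2 in knockdown and 1217.3, 1192.3 and 1180.6 in wild type, among the tightest values of the group, and rose by 0.53 ± 0.06 (limma adjusted p 0.000133). Hmmr, a hyaluronan receptor that also acts at spindle poles, read 1846.1, 2021.7 and 1865.4 against 1312.6, 1433.5 and 1392.5 and rose by 0.48 ± 0.07 (limma adjusted p 0.000657). Of its 5 probe sets 2 were called, and the other 3 had log2 fold changes from 0.15 to 0.43. Tpx2, the activator of Aurora A on the spindle, read 991.2, 804.3 and 873.2 in knockdown and 790, 828.1 and 832.5 in wild type on its brightest probe set, with overlap and a log2 difference of 0.07 ± 0.09 (limma adjusted p 0.643). On another Tpx2 probe set the signals were 532.2, 591.3 and 577.3 and 332.3, 371.9 and 372.8, with no overlap, and the rise was 0.53 ± 0.11 (limma adjusted p 0.0043). With that probe set, 23 of the 34 genes had at least 1 probe set called higher. This count favours genes with more probe sets, and the share of all genes under the same rule was not counted.

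Among genes of chromosome structure, Mki67, Top2a, Smc4 and Smc2 rose. Mki67, which coats mitotic chromosomes and marks cycling cells, read 3858.9, 4340.3 and 3846.7 in knockdown and 2983, 2915.9 and 3038.2 in wild type and rose by 0.50 ± 0.07 (limma adjusted p 0.000311). Top2a, the topoisomerase that untangles sister chromatids, read 3475.5, 2718.7 and 3235.8 against 2268.6, 2108.8 and 2236.3 and rose by 0.56 ± 0.08 (limma adjusted p 0.00045). Neither gene had overlapping groups. The condensin ATPase gene Smc4 read 3877, 3971.2 and 4130.3 against 3028.1, 3275.4 and 3203.7 and rose by 0.40 ± 0.06, and its partner Smc2, at 2468.7, 2321.4 and 2621 against 2065.4, 2182.4 and 2168.6, by 0.25 ± 0.06 (limma adjusted p 0.000399 and 0.0126). A further Smc4 probe set rose by 0.58 ± 0.19 (limma adjusted p 0.0437), with knockdown A at 1739 and B and C at 914.5 and 1057. The remaining Smc4 one, at 0.19 ± 0.09, was not called (limma adjusted p 0.14). The call of Smc2 was lost without knockdown C (0.0506) or wild type A (0.0645), and without the intensity trend (0.0821). Its other 4 probe sets, at -0.12 to 0.76, were not called, nor was the mean over its probe sets (0.36, limma adjusted p 0.0728). The condensin I subunit gene Ncapd2 was at 0.10 ± 0.08 and did not pass, although its signals of 1139.2, 1033 and 1130.1 in knockdown all exceeded the 1020.8, 991 and 1029.4 of wild type (limma adjusted p 0.388). Its other probe set, at 0.62 ± 0.32 with overlapping groups, was not called either (limma adjusted p 0.185).

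Probe sets of the same gene can read different stretches of its transcripts, and those with the suffix _s_at or _x_at can also read related transcripts, so their calls were compared. The brightest probe sets of Nek2 and Pttg1 and the Bub1b one with the largest value carry _s_at. The brightest ones of Cdc20 and Kif2c carry _x_at. Of 19 genes with more than 1 tested probe set, 3 had all of them called higher (Ccna2, Kif11 and Top2a), 10 had some called higher and the rest not called, 4 had none called, and Nek2 and Pttg1 each had 1 called lower. No gene had calls in both directions. Dim probe sets had the wider errors: the median SE was 0.20 for the 33 with a wild-type mean signal under 500 and 0.08 for the 37 brighter ones. Of the dim ones 10 rose and 0 fell, with a median log2 fold change of 0.45. Among the brighter ones 24 rose and 2 fell, and the median was 0.39. Over all probe sets tested, dim and bright together, 16.1% rose and 14.3% fell. Of all genes with a wild-type mean signal of 500 or more, each by its brightest probe set, 29.1% rose and 28.4% fell. The shares of all dim and of all bright probe sets were not counted, so neither class has a background of its own kind.

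**Figure D4:**
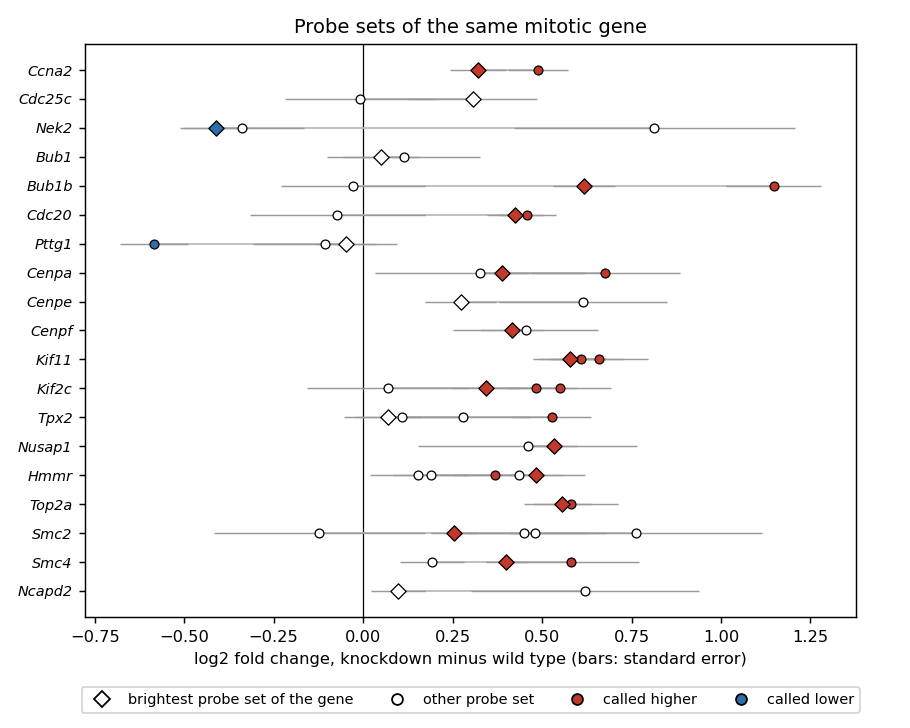
Log2 fold change and standard error of every tested probe set for the 19 genes with more than 1, with diamonds for the brightest probe set of a gene, red for called higher, blue for called lower and white for not called. The probe sets of Kif11 lie together between 0.58 and 0.66, while those of Nek2 range from -0.41 to 0.81.

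Further genes of mitosis and of its regulation were taken from 5 lists that hold none of the 35. Of 151 such genes, 148 were measured and 146 tested, and of these 49 rose, 9 fell and 88 did not pass, with a median log2 fold change of 0.18. The 33.6% that rose stand beside 18.3% of all genes tested, of which 17.1% fell. With arrays centred on their medians 16 of the 146 rose and 13 fell, where 8.36% of all genes rose and 20.8% fell. Of 20 genes on the condensin and cohesin list 12 rose and 1 fell. The largest rises were those of the cohesion factor Cdca5 at 0.65 ± 0.09, the cohesin subunit Stag2 at 0.51 ± 0.09 and Top2b at 0.66 ± 0.08. Top2b is on that list but is a topoisomerase, not a part of condensin or cohesin. The call of Stag2 was lost under median centring (0.25, limma adjusted p 0.0785), and the highest limma adjusted p of the further genes named was 0.00567, for Cenpn. Of 29 spindle and motor genes 13 rose and 1 fell. Prc1, which bundles the central spindle, rose by 1.04 ± 0.14, with a mean signal of 1924 ± 361 (SD, n = 3) in knockdown against 905 ± 82.3 in wild type, and Plk4, the kinase of centriole duplication, by 0.74 ± 0.09. Haus8, of the augmin complex, fell with a log2 fold change of -0.76 ± 0.12. The probe sets used for Prc1, Plk4 and, below, Ube2s carry the suffix _s_at.

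Of 41 other kinetochore and centromere genes tested, 5 rose and 3 fell, and the 12.2% that rose stand beside the same 18.3% of all genes, of which 17.1% fell. Cenpn, which binds the centromeric nucleosome, rose by 0.94 ± 0.20, and Sgo1, the protector of centromeric cohesion, by 0.51 ± 0.11, a call lost once arrays were centred on medians (0.40, limma adjusted p 0.0653). Mad1l1, the checkpoint partner of MAD2, fell with a log2 fold change of -0.75 ± 0.16. Among 17 genes of the anaphase-promoting complex and its regulators, 5 rose and 1 fell. Its inhibitor Fbxo5, or EMI1, rose by 0.88 ± 0.09, with mean signals of 985 ± 36.7 and 501 ± 6.6 in knockdown and wild type (SD, n = 3). Ube2s, the chain-elongating enzyme, rose by 0.57 ± 0.06 on its brightest probe set but not in the mean of its probe sets (0.09, limma adjusted p 0.621). Anapc15 fell with a log2 fold change of -0.68 ± 0.10.

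Regulators of mitotic entry and of mitotic gene transcription rose in 14 of 39 cases and fell in 3, where 18.3% of all genes tested rose and 17.1% fell. Cdkn1a, the CDK inhibitor p21, read 7395.3, 8235.6 and 8300.8 in knockdown and 4613.3, 4430.7 and 4513.7 in wild type and rose by 0.88 ± 0.05 (limma adjusted p 1.03e-06). The E2F factor genes E2f2 and E2f4, an activator and a repressor, rose by 0.80 ± 0.09 and 0.77 ± 0.11 (limma adjusted p 0.000107 and 0.000325). Among 151 promoter windows of genes on the 5 lists, TTTGAA or TTCGAA was present in 64, or 42.4%, between the 75.9% of the group described here and the 19.2% of all windows.

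**Figure D5:**
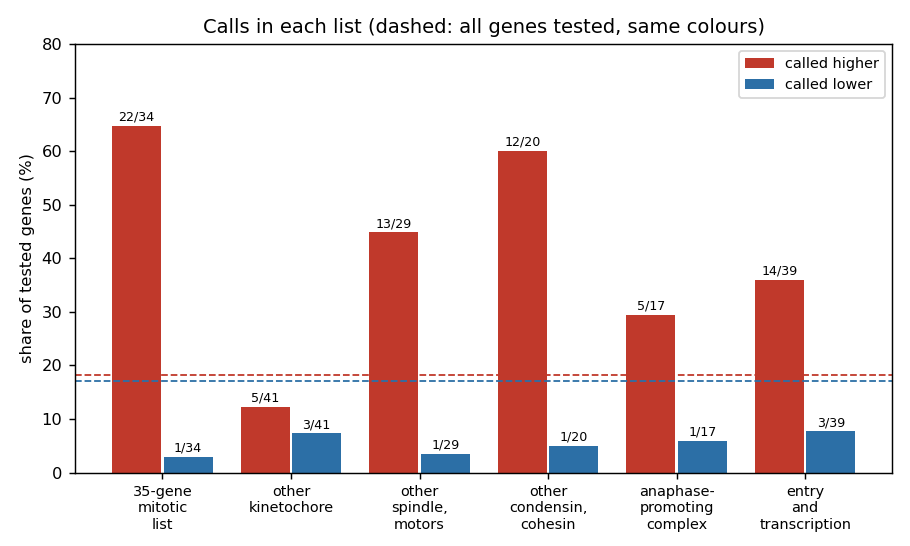
Share of tested genes called higher (red) and lower (blue) after quantile normalization in the group of mitotic genes and in the 5 further lists, with the counts above each bar and dashed lines at the shares of all genes tested. The mitotic genes, at 22 of 34, and the condensin and cohesin list, at 12 of 20, have the highest red bars, and the other kinetochore genes, at 5 of 41, lie below the red line.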

How the data were processed

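The deposited table of the whole series gave 1 intensity per probe set and array, on a linear scale, which the authors had scaled to a common trimmed mean (2% trimmed at each end), as the values themselves show. The software and genome build behind it are not stated in the labels. Groups and replicate letters came from the sample titles. Controls (64 probe sets) and probe sets below the 30th percentile of mean log2(signal + 32) were left out, which left 31526. Array medians differed, so arrays were quantile normalized, which removes a shift common to all genes. Groups were compared with limma (3.58.1 in R 4.3.3), by lmFit and eBayes with an intensity trend. Tests were two-sided, with Benjamini-Hochberg adjustment over all probe sets tested and a threshold of 0.05. The fit was also run on simulated arrays, drawn independently and with spreads shuffled over probe sets. That run cannot show how the fit handles the intensity trend or arrays that depend on each other. In the platform annotation 34945 probe sets carry 1 gene, 932 carry several and 9160 are unnamed. Symbols were updated through gene numbers of GRCm38.p6.

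For genes with several probe sets the brightest over the 6 arrays was used. The genes named are Gata1, all members and up to 3 called genes with the largest changes of each further list. Members, lists and tests were chosen with earlier results of these data known. Correlations of the deviations of same-letter arrays were -0.04, -0.02 and -0.01, and the main fit used no pairing. With so few arrays these values cannot show whether a letter marks a shared preparation, and the labels do not say. Identical signals made up at most 0.235% of any pair of arrays. Precision is limited by the number of arrays. The alternatives are given in the closing section.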

Additional observations from a re-analysis of the deposited data

How the results depend on the processing

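The 15 alternatives were offsets of 1 and 100, values as deposited, arrays centred on their medians, no filter, a filter at the 50th percentile, no intensity trend, the replicate letter as a block, averaging a gene's probe sets, and leaving out each array in turn. Median centring alone moved the counts by over 1.5 times: 6 mitotic genes rose and 2 fell, 13 of their probe sets rose, 16 further mitosis genes rose, and the median log2 fold change of the mitotic genes was 0.18. Of all genes, 8.36% rose and 20.8% fell under this centring, and the share of all probe sets was not counted. Under it, genes that had not been called changed sign: Aurka to -0.062, Bub1 to -0.076, Birc5 to -0.17, Tpx2 to -0.081 and Ncapd2 to -0.081. Averaging probe sets turned Nek2 to 0.021, ended the calls of Cdc20 and Smc2 and made Mad2l1 and Cenpe (higher) and Pttg1 (lower) pass. Without the intensity trend the calls of Ccna2, Kif2c and Smc2 were lost.

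Without 1 array, 17 to 23 mitotic genes and 27 to 35 of their probe sets rose, 1 gene fell each time, 38 to 52 further genes rose and 6 to 13 fell, and the median lay between 0.38 and 0.40. Of 23 called genes, 17 kept their call without any 1 array and 6 under all alternatives. Values near 0 changed sign for Pttg1 (-0.11 to 0.063), Tpx2 (-0.0029 to 0.13) and Bub1 (-0.0026 to 0.13). With the replicate block, 21 mitotic genes rose and 1 fell, 33 of their probe sets rose and 43 further genes rose, and the block ended the call of Kif20a among the mitotic genes. Shares over all genes and probe sets without 1 array or with the block were not counted. In the main fit 18.3% of all genes rose and 17.1% fell, which may not hold for those fits. The Gata1 log2 fold change lay between -5.79 and -5.07 under all alternatives. Dim signals limit what the dimmer probe sets can show.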
